A study of Mus musculus with 2 samples.

Results

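The cells described here are CD8 T cells of MC38 tumours that carried much Ccl5 RNA and little RNA for inhibitory checkpoint receptors. They were selected on their own counts from 30547 barcodes with at least 800 UMIs (unique molecular identifiers, tags that count each captured RNA molecule 1 time) and at most 20% mitochondrial UMIs. A member had at least 2 UMIs of Cd3d, Cd3e, Cd3g and Trac together, at least 1 of Cd8a and Cd8b1, 0 of Cd4 and Foxp3 and at most 3 of the macrophage genes C1qa, C1qb and C1qc. It also had at least 3 Ccl5 UMIs, at most 1 UMI of Pdcd1, Havcr2, Lag3 and Tigit together, 0 of the memory genes Tcf7, Lef1 and S1pr1, and at most 1 of the proliferation genes Mki67 and Top2a. In all, 212 barcodes met the rule, 32 of 13096 in the control library and 180 of 17451 in the knockdown library.

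MC38 is a mouse colon adenocarcinoma cell line that is grown as a tumour in mice. The series holds 1 droplet-based single-cell library from a control tumour sample (genotype label Mbtps1 WT) and 1 from a sample labelled Mbtps1 KD, whose title reads SHM; knockout is the word in the series text. The comparison asks what loss of MBTPS1, the site-1 protease that cuts membrane-bound transcription factors in the Golgi, does to the tumour microenvironment. The labels give neither the host strain, age or number of mice, nor the agent of the knockdown or the cells that carry it. Every cell of a group comes from 1 library, so no difference below has a replicate check, no test between groups was possible, and the 95% intervals cover counting error only.

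Cytotoxic CD8 T cells recognise peptide on MHC class I and kill by releasing perforin and granzymes at the contact with the target cell. They also secrete interferon gamma and the chemokines Ccl3, Ccl4, Ccl5 and Xcl1, which act on macrophages, dendritic cells and other T cells. In tumours, long antigen exposure is known to raise inhibitory receptors such as PD-1, Tim-3, Lag-3 and Tigit, while Ccl5 marks antigen-experienced cells with or without them.

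Promoters of Ifng, Gzma and Prf1, an effector cytokine gene and killing genes described below, are shown as examples of genes on which the results turn. The sequences are the 250 bases before the start of the gene, 5′ to 3′ on the gene's strand, from RefSeq on GRCm38.p6. Ifng, on the plus strand, is at chr10:118440796-118441045, Gzma, on the minus strand, at chr13:113100982-113101231, and Prf1, on the plus strand, at chr10:61297586-61297835. Capitals mark TATAA, the TATA core, and TGTGGT, a core of the motif of RUNX factors, searched on both strands.
Ifng: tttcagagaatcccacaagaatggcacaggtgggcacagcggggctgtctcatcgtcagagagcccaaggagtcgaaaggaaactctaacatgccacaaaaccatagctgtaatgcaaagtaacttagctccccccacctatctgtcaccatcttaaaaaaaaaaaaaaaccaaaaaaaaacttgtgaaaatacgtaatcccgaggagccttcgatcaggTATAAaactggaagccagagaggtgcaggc
Gzma: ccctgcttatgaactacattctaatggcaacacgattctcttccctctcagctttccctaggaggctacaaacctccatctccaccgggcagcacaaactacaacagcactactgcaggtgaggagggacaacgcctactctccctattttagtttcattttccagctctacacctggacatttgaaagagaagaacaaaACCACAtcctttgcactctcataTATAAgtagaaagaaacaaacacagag
Prf1: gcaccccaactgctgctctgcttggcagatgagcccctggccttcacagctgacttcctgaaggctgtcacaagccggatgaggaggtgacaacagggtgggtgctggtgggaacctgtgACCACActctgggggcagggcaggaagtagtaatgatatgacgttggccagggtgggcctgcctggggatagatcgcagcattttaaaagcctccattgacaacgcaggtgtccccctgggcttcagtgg
The TATA core lay 30 bases before the start of Ifng and 27 before that of Gzma. The RUNX core was read on the other strand as ACCACA, 50 bases before the start of Gzma and 130 before that of Prf1. GTGTGA, a core of the T-box motif, was not in these 3 windows. Of 32851 promoters of this kind and length in the table, 22.78% held TATAA, 14.05% TGTGGT and 12.29% GTGTGA, so each is common. A match describes letters and not binding. The motifs did not overlap one another.

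The control library held 177399315 UMIs in all and the knockdown library 174190399. Both were unfiltered, with 1688458 and 1769772 barcodes listed, and the barcodes of at least 800 UMIs outnumbered the about 6000 cells loaded. Of barcodes with at least 800 UMIs, 55 occurred in both libraries, and 0 of these was a member. Scrublet, a doublet caller, marked 3.30% and 4.96% of the kept barcodes, among them 0 of 32 control and 10 of 180 knockdown members. Mbtps1 itself was too sparse in the members to check the label, at 1 UMI in control and 15 in knockdown. In all CD8-gated cells it was at 30.7 and 24.6 CPM (UMIs of the gene per 1000000 UMIs of the cell group), a ratio of 0.802 (0.560 to 1.16). In cells rich in Cald1 and Col3a1 and without Ptprc it was at 29.3 and 12.8 CPM, a ratio of 0.435 (0.404 to 0.469). That selection does not part tumour cells from other mesenchymal cells.

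The members were shallow cells with few genes. Their median depth was 2686 UMIs and 1219 genes in control and 2013.5 UMIs and 1000 genes in knockdown, and 15.6% and 17.8% of them had under 1500 UMIs. The whole group held 99118 and 511304 UMIs. T cell receptor complex UMIs are rare in free RNA: at 5% of a member's depth, empty droplets of the same library would supply 0.00671 and 0.0112 such UMIs per cell, and 0.0720 and 0.0646 Ccl5 UMIs. Free C1q RNA would supply more, 0.505 and 0.240 UMIs, and 14 control and 81 knockdown members carried a C1q UMI.

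A few members stood apart from the rest in depth and content. There were 2 control members over 6000 UMIs, at 10808 and 8664, and 10 knockdown members between 7005 and 29820 UMIs. They held 19.6% and 30.5% of all member UMIs. Each carried 98 to 213 (control) or 61 to 695 (knockdown) UMIs of a list of 10 MC38 and mesenchymal genes. Members of at most 6000 UMIs carried 1 to 28 and 1 to 39. The list was H19, Igf2, Krt18, Krt8, Cald1, Sparc, Col3a1, Cdkn2a, Timp3 and S100a6. S100a6 gave 53 UMIs in the deepest control and 196 in the deepest knockdown member. Collagen, Sparc and H19 UMIs together were few in most deep members, at 4 in the control member of 8664 UMIs and 7 to 52 in knockdown after the deepest. Which cells the list RNA came from was not tested. T cell receptor complex RNA of the deep members was diluted, at a median of 10.6 and 3.93 UMIs per 10000, against 33.4 and 26.7 in the others. Scrublet marked 0 of the 2 and 6 of the 10, and 4 of the other 170 knockdown members. The deepest control member had 219 UMIs of Col1a1, 127 of Col3a1, 106 of Col1a2 and 79 of the myeloid gene Lyz2, and it held 331 of the 334 control UMIs of a stromal list. The deepest knockdown member had 310 UMIs of H19, an imprinted RNA of the tumour cells, and only 2 of the T cell receptor complex. Gene results below are over all members unless said otherwise, and list counts and calls that differ are also given for the 30 control and 170 knockdown members of at most 6000 UMIs, a bound chosen after the data were seen.

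**Figure D1:**
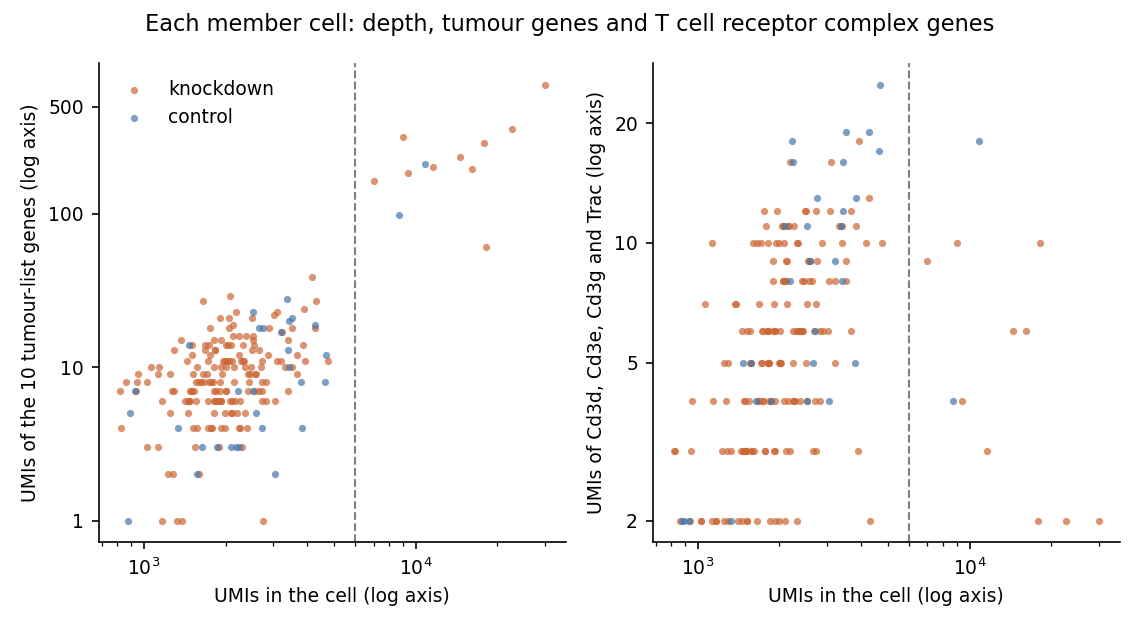
Each point is 1 member cell: its total UMIs (x, log axis) against its UMIs of the 10 tumour-list genes (left, log axis) or of Cd3d, Cd3e, Cd3g and Trac (right, log axis), control in blue and knockdown in orange. The dashed line is 6000 UMIs; the 12 cells to its right carry 61 to 695 tumour-list UMIs, and those to its left 1 to 39.

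The label was then checked against the cells. Ccl5 was at 6528 CPM in control and 6824 CPM in knockdown members, with a median of 13 and 15.5 UMIs per cell and a range of 3 to 93 and 3 to 85. These values chose the cells, so they are a description. Checkpoint-high CD8 cells, which met the same rule but had at least 2 checkpoint UMIs, carried Ccl5 at 3694 and 5645 CPM, and memory-like CD8 cells, with a Tcf7, Lef1 or S1pr1 UMI, at 3282 and 5431 CPM. Ccl5 RNA was also found outside T cells: C1q-rich cells without T cell receptor UMIs had a Ccl5 UMI in 29.6% and 33.7% of cells after thinning to 800 UMIs, against 90.6% and 96.7% of members.

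Ly6c2, a surface antigen of monocytes and of activated and memory CD8 cells, did not mark the members against memory-like cells. It was at 626 and 540 CPM in them, at 334 and 649 CPM in checkpoint-high cells and at 863 and 791 CPM in memory-like cells. The control members were higher than control checkpoint-high cells, at a ratio of 1.87 (1.298 to 2.695), while the knockdown ratio was 0.832. Only 28.1% and 37.2% of members had a Ly6c2 UMI after thinning, against 40.0% and 45.8% of memory-like cells. Cd8a was at 515 and 415 CPM and Cd8b1 at 474 and 428 CPM in members, close to the 638 and 503 CPM and 559 and 446 CPM of checkpoint-high cells.

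Some markers of gamma-delta T, NK and B cells were at 0, while other genes of each list were not. Trdc and Tcrg-C1, constant genes of the gamma-delta receptor, and Ncr1 and Klrb1c, receptors of NK cells, had 0 UMIs in both groups of members, as had the B cell genes Cd79a and Ms4a1. The 8 gamma-delta genes had 1 UMI in control and 6 in knockdown members, all of Tcrg-C2. These were 10.1 and 11.7 CPM, above the 5.35 and 6.89 CPM of empty droplets. The 6 B cell genes had 1 and 2 UMIs. The 10 NK genes summed to 464 and 331 CPM, 23.7% and 22.6% of their level in empty droplets. Of these NK genes 6 and 7 were detected, and 2 in each library were above empty droplets. The 8 CD4 and regulatory T cell genes summed to 958 CPM in control and 358 CPM in knockdown members, far above the 49.5 and 62.5 CPM of empty droplets, with Cd4 and Foxp3 at 0 by the rule and Cd40lg at 0 in control; 5 and 6 of the 8 were above empty droplets, and the sum in checkpoint-high cells was 841 and 506 CPM. The list includes Tnfrsf4, Il2ra and Ctla4, which activated CD8 cells also carry. The 14 macrophage genes summed to 1836 and 1076 CPM, 11.5% and 10.3% of their level in empty droplets, and 92 of the 182 control UMIs lay in the deepest member. The 10 tumour-list genes summed to 6084 and 8553 CPM over all members, 53.3% and 69.5% of the level in empty droplets, and to 3666 and 4713 CPM in members of at most 6000 UMIs. What part of any gene result these RNAs make up was not tested.

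The rule is sharp where the counts are not. Of the members, 4 control and 18 knockdown cells had exactly 3 Ccl5 UMIs and 2 and 13 had 4, while 0 and 10 cells met every other condition with 2 Ccl5 UMIs and 9 and 21 with 1. A checkpoint UMI was present in 19 of 32 and 104 of 180 members, so 13 and 76 had 0, and 9 and 70 cells just outside had 2. Per 10000 UMIs the members carried 1.92 and 2.03 checkpoint UMIs and the checkpoint-high cells 9.77 and 10.6. Checkpoint UMIs chose both groups, so these values are a description.

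The split moved with depth. Among members and checkpoint-high cells together, members made up 5 of 5 control and 78.0% of knockdown cells of 800 to 1500 UMIs, 59.1% and 52.2% from 1500 to 3000, and 31.6% and 22.99% from 3000 to 6000. Above 6000 UMIs they made up 2 of 9 and 10 of 20 cells. With every cell thinned to 800 UMIs, 21.9% of control and 18.9% of knockdown members still had a checkpoint UMI, against 64.3% and 61.9% of checkpoint-high cells. The same UMIs had defined both groups, so this gap is a description and no check of the split. The 2 groups are thus ranges of a count that goes up with depth, and the checkpoint-high cells were deeper, with medians of 3787.5 and 2707 UMIs.

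The members were a larger share of CD8 T cells in the knockdown library. They made up 32 of 277 CD8-gated cells in control, or 11.6% (8.04 to 15.9, exact Clopper-Pearson), and 180 of 859 in knockdown, or 21.0% (18.3 to 23.8), a ratio of 1.81 (1.24 to 2.73). CD8-gated cells as a whole were 2.12% and 4.92% of the kept barcodes, so members were 0.244% and 1.03% of all barcodes, a ratio of 4.22. Checkpoint-high cells moved the same way, from 15.2% to 22.6% of CD8-gated cells, and memory-like cells the other way, from 16.2% to 6.87%. Cycling cells were at 16.2% and 17.3% and Ccl5-low cells at 9.75% and 10.1%, with intervals that overlap widely.

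Because CD8-gated cells were deeper in control, with a median of 3824 against 2730 UMIs, the rule was also applied after thinning every cell to 800 UMIs. It then took 23 of 114 control cells, 20.2% (13.2 to 28.7), and 124 of 372 knockdown cells, 33.3% (28.6 to 38.4), a ratio of 1.65. Only 9 and 61 of these cells were members by the full counts, so the order of the libraries held while the cells chosen changed. Among cells of at most 6000 UMIs the ratio was 1.54, the lowest of the alternatives.

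**Figure D2:**
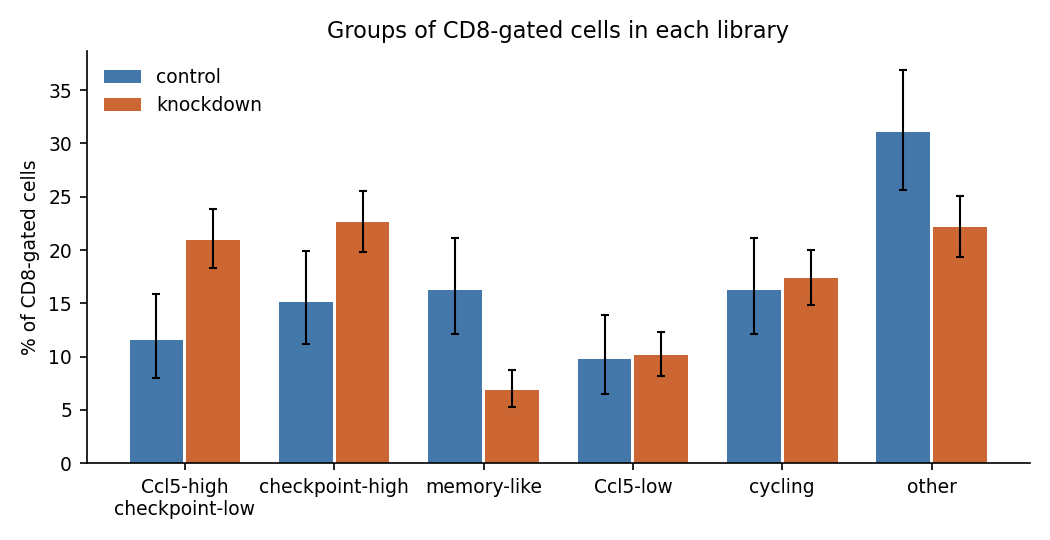
Bars give each group's share of CD8-gated cells (y, percent) in the control (blue) and knockdown (orange) library, with exact 95% binomial intervals for counting error. Ccl5-high checkpoint-low cells make up 11.6% and 21.0%, and memory-like cells 16.2% and 6.87%.

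Several killing genes were lower in members than in checkpoint-high cells in each library, while Gzma was higher in control members. A gene was called higher or lower where its CPM ratio was past 1.5-fold with the counting interval beyond 1, among genes with at least 20 UMIs over both cell groups, without the genes of the rule. Of the control genes tested 4.17% were called higher and 6.29% lower in members, and of the knockdown genes 3.42% and 4.58%. The numbers were 94 and 142 of 2256 genes in control and 229 and 307 of 6697 in knockdown; below 6000 UMIs 3.68% and 5.92% and 2.14% and 3.87% were called. Of the 22 killing genes 17 were measured in control, with 1 called higher and 5 lower, and 20 in knockdown, with 0 higher and 6 lower. Below 6000 UMIs the counts were 1 and 5 of 14 and 0 and 5 of 20. The list's median log2 ratio was -0.37 and -0.45, beside -0.05 and -0.04 over all genes tested.

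Prf1 encodes perforin, the pore former of cytotoxic granules. It was at 111 CPM in control and 121 CPM in knockdown members, and at 282 and 276 CPM in checkpoint-high cells. Members were lower in both libraries, with ratios of 0.393 (0.185 to 0.761) and 0.440 (0.324 to 0.589), and of 0.371 and 0.491 below 6000 UMIs. The control value rests on 11 UMIs and lay on the other side of 1 when the rule was applied after thinning (log2 ratio 0.97) or to cells of 1000 to 3000 UMIs (1.22), while the knockdown value stayed below 1 under every alternative.

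Gzma encodes granzyme A, a tryptase of cytotoxic granules. It was at 1564 CPM in control and 743 CPM in knockdown members, against 381 and 502 CPM in checkpoint-high cells. The control members were higher, with a ratio of 4.10 (3.08 to 5.49), and 3.46 below 6000 UMIs. In knockdown the ratio was 1.48 (1.28 to 1.72), which did not pass the call, and under the thinned rule it lay below 1 (log2 ratio -0.24). Gzmb, granzyme B, was at 948 and 743 CPM in members and 904 and 996 CPM in checkpoint-high cells, ratios of 1.05 and 0.746 that did not pass the call.

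Granzymes encoded beside Gzmb were lower in knockdown members, and Gzmf in control members too. In control Gzmd was at 0 CPM in both members and checkpoint-high cells. Gzmf had 0 UMIs in the control members, which allows up to 30.3 CPM, and 21 UMIs or 41.1 CPM in the knockdown members, while checkpoint-high cells were at 444 and 320 CPM. It was called lower in both libraries: at least 14.7-fold lower in control, and at a ratio of 0.128 (0.0779 to 0.201) in knockdown. Of the 180 knockdown members 176 had no Gzmf UMI. In knockdown the call rests on deeper cells, since the log2 ratio in cells of 1000 to 3000 UMIs was 0.12. Gzmc, Gzmd and Gzme were also called lower in knockdown members, at 31.3, 3.91 and 1.96 CPM against 83.6, 44.0 and 29.3 CPM. These genes are close paralogues, and how the counting assigned reads shared between them is not given, so the split among them is uncertain. Empty droplets held Gzmc at 156 and 108 CPM, above the members, and Gzmf at 50.4 and 18.6 CPM.

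Other granule genes differed less. Nkg7, a granule membrane protein needed for degranulation, was at 1998 and 1645 CPM in members and 2628 and 2151 CPM in checkpoint-high cells, ratios of 0.760 and 0.765. Cst7, which encodes the protease inhibitor cystatin F, was at 131 and 102 CPM against 230 and 169 CPM and was called lower in knockdown, at 0.603 (0.426 to 0.843), while below 6000 UMIs it was called in control, at 0.436, and not in knockdown, at 0.674. Serpinb9 and Serpinb6b, serine protease inhibitors of which Serpinb9 protects killer cells from their own granzyme B, were called lower in control members, at 0.370 and 0.414, and not in knockdown, at 0.720 and 0.951.

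In summed UMIs the effector cytokines went by library. Ifng was at 1544 CPM in control and 1099 CPM in knockdown members, and at 1463 and 679 CPM in checkpoint-high cells. It was called higher in knockdown members, with a ratio of 1.62 (1.43 to 1.83) and 1.74 below 6000 UMIs, while the control ratio was 1.06 (0.861 to 1.29). In knockdown cells of 1000 to 3000 UMIs the log2 ratio was -0.17, on the other side of 1. Ccl4 showed the same order, with 4046 and 3880 CPM in members, 5319 and 2296 CPM in checkpoint-high cells, and ratios of 0.761 and 1.69. The shares of cells with a UMI were not higher in knockdown members. An Ifng UMI was found in 15% of them and 20.1% of knockdown checkpoint-high cells after thinning to 800 UMIs. For Ccl4 these shares were 30% and 31.4%. In control they were 25% and 26.2% for Ifng and 43.8% and 45.2% for Ccl4. The intervals overlapped for both genes in both libraries.

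Xcl1, a chemokine that attracts cross-presenting dendritic cells, took opposite sides in the 2 libraries by summed UMIs. It was at 242 CPM in control members against 1212 CPM in control checkpoint-high cells, and at 792 CPM against 480 CPM in knockdown. The ratios were 0.1997 (0.125 to 0.305) and 1.65 (1.42 to 1.92). The control checkpoint-high value came from 5 of 42 cells. By cells the sides were not opposite. After thinning to 800 UMIs, an Xcl1 UMI was found in 6.25% of control members and 4.76% of control checkpoint-high cells. In knockdown the shares were 14.4% and 11.3%, and the intervals overlapped in both libraries. Ccl3 was called lower in control members, at 868 against 1954 CPM, and was at 990 against 850 CPM in knockdown. Over the 18 cytokine and chemokine genes, 0 of 7 were called higher and 2 lower in control and 3 of 11 higher and 3 lower in knockdown, and below 6000 UMIs 0 and 2 of 6 and 3 and 2 of 11.

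In each library these cytokines came from few cells. Among members of at most 6000 UMIs, the top 3 of 30 control cells held 86.9% of Ifng UMIs, 91.0% of Ccl4, 95.3% of Ccl3 and 95.2% of Xcl1. The top 17 of 170 knockdown cells held 94.8%, 90.5%, 96.2% and 94.0%. The highest single cell had 328 Ccl4 UMIs in control and 159 Ifng and 127 Xcl1 UMIs in knockdown, and the median cell had 0 Ifng, Ccl3 and Xcl1 UMIs in both. A ratio of summed Xcl1 or Ifng therefore compares a handful of cells, and its counting interval does not include the spread between cells.

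Ccl5 and granule genes were spread more evenly. The same top cells held 30.3% and 29.4% of Ccl5 UMIs, although Ccl5 was part of the rule, 24.6% and 26.7% of Nkg7, 48.8% and 52.4% of Gzmb, and 60.0% and 71.2% of Gzma. A Nkg7 UMI was found in 93.3% and 94.1% of these members, a Gzmb UMI in 53.3% and 60.0%, a Gzma UMI in 46.7% and 31.8%, and an Ifng UMI in 43.3% and 25.9%.

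After thinning to 800 UMIs, Gzma was found in 31.3% (16.1 to 50.01) of control and 23.3% (17.4 to 30.2) of knockdown members and Ifng in 25% (11.5 to 43.4) and 15% (10.1 to 21.1). C1q-rich cells, with median depths of 6962 and 5144 UMIs, had a Gzma UMI in 0.196% and 0.396% and an Ifng UMI in 0.123% and 0.0913% of cells after the same thinning, far below the members. A Ccl3 UMI was found in 4 of 8 Ifng-positive control members and 0 of 24 others, and in 13 of 27 against 11 of 153 knockdown members. A Ccl4 UMI was found in 75.0% of Ifng-positive and 33.3% of other control members, and in 70.4% and 22.9% in knockdown. For Gzma and Ly6c2 the shares were closer, with Ly6c2 in 30.0% of Gzma-positive and 27.3% of other control members, and 40.5% and 36.2% in knockdown.

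**Figure D3:**
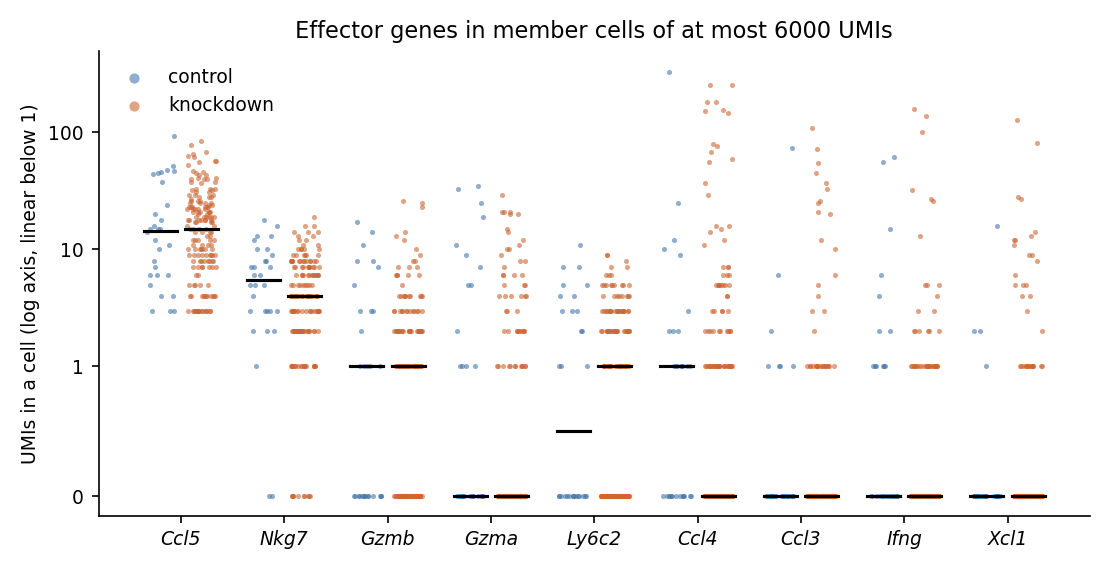
Each point is 1 member cell of at most 6000 UMIs (30 control in blue, 170 knockdown in orange), with its UMIs of each gene (y, log axis, linear below 1) and the median as a black line. Ccl5 and Nkg7 are present in nearly all cells, while Gzma, Ccl3, Ifng and Xcl1 have a median of 0 in both libraries. The highest cells have 74 Ccl3, 62 Ifng and 16 Xcl1 UMIs in control and 110, 159 and 127 in knockdown.

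A small set of genes was called in both libraries. Over all members 11 genes were called higher and 26 lower than in checkpoint-high cells in both libraries, of 2249 measured in both, of which 1277 lay on the same side. Below 6000 UMIs there were 6 and 12. The 6 higher genes were Itgb1, an integrin chain for matrix and Vcam1, Nfkbia, the inhibitor of NF-kappaB that NF-kappaB induces, Nr4a1, an immediate early gene of antigen receptor signalling, and Ripor2, Emb and Fgf13. The 12 lower genes included Prf1, Gzmf, Inpp4b and Rabgap1l.

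Itgb1 was at 504 and 334 CPM in members against 256 and 220 CPM, with ratios of 1.97 (1.302 to 2.98) and 1.52 (1.21 to 1.91), and it stayed above 1 under every alternative. Nfkbia was at 232 and 235 CPM against 88.8 and 104 CPM, ratios of 2.61 and 2.25. Its level in empty droplets was 142 and 228 CPM, and its control ratio lay below 1 under the thinned rule (log2 -1.35) and in cells of 1000 to 3000 UMIs (-0.30). Nr4a1 was at 262 and 89.97 CPM against 73.1 and 55.8 CPM, ratios of 3.59 (1.81 to 7.43) and 1.61 (1.03 to 2.55).

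Of the lower genes, Rabgap1l, which encodes a Rab GTPase-activating protein, was at 232 and 315 CPM against 549 and 583 CPM, ratios of 0.423 (0.257 to 0.669) and 0.541 (0.447 to 0.651). It stayed below 1 under every alternative, as did St6galnac3, a sialyltransferase gene, at 80.7 and 89.97 CPM against 434 and 248 CPM. Inpp4b, a phosphoinositide phosphatase gene, was at 333 and 295 CPM against 773 and 528 CPM, ratios of 0.430 and 0.559, but in control cells of 1000 to 3000 UMIs its log2 ratio was 0.35, from 15 members and 9 checkpoint-high cells.

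**Figure D4:**
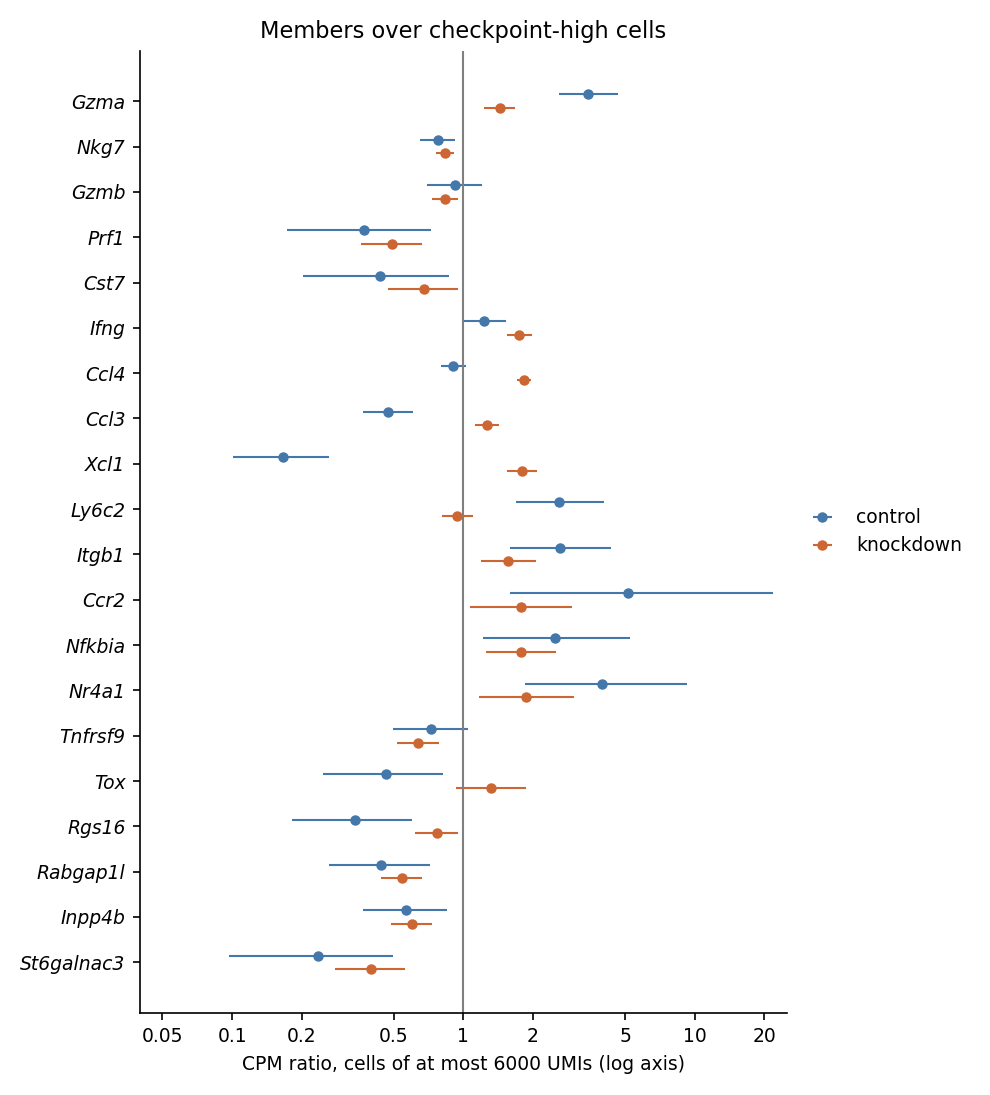
Points are CPM ratios of members over checkpoint-high cells among cells of at most 6000 UMIs (x, log axis) for 20 genes in the control (blue) and knockdown (orange) library, with 95% counting intervals. Prf1, Rabgap1l, Inpp4b and St6galnac3 lie left of 1 and Itgb1, Nfkbia and Nr4a1 right of 1 in both libraries, while Xcl1 lies at 0.167 in control and 1.80 in knockdown.

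Other genes tied to exhaustion, outside the rule, were called in both directions. Of 38 listed, 28 were measured in control, with 5 called higher and 4 lower, and 34 in knockdown, with 1 higher and 3 lower; below 6000 UMIs the counts were 2 and 4 of 25 and 2 and 3 of 33. Tox, a factor of exhausted cells, was at 161 CPM in control members against 355 CPM, a ratio of 0.454 (0.246 to 0.792), and at 131 against 110 CPM in knockdown. Tnfrsf9, the costimulatory receptor 4-1BB, was lower in knockdown members, at 284 against 455 CPM, and was at 454 against 658 CPM in control, a ratio of 0.690 that did not pass the call. Rgs16, a regulator of G protein signalling, was at 151 against 491 CPM in control, called lower, and 297 against 406 CPM in knockdown. Of the T cell receptor signalling list 0 of 24 were called higher and 3 lower in control and 0 of 31 and 4 in knockdown, and below 6000 UMIs 1 and 2 of 23 and 0 and 2 of 31. Trbc1 was lower in control members, at 242 against 805 CPM, a constant gene whose reads are hard to tell from those of Trbc2.

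Interferon-response genes were called higher in knockdown members, 11 of 43 with a median log2 ratio of 0.52, against 1 higher and 1 lower of 24 in control with a median of -0.31; the difference between libraries was not tested. Below 6000 UMIs 6 of 39 were called higher in knockdown and the median was 0.24. Isg15, a ubiquitin-like protein, was at 137 against 74.8 CPM in knockdown and was called lower in control, at 50.4 against 199 CPM. Gbp2, a guanylate-binding protein, was at 299 against 179 CPM in knockdown. Isg15 was at 182 CPM in the empty droplets of the knockdown library, above its level in the members. Iigp1, an interferon-inducible GTPase, was called at 221 against 117 CPM over all members, but at 28.2 against 44.9 CPM below 6000 UMIs. Of immediate early genes 1 of 17 was called higher in control and 3 of 28 in knockdown, with 0 lower, and 2 of 14 and 5 of 28 below 6000 UMIs.

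For the remaining lists the counts of calls against checkpoint-high cells are given for control and then knockdown. Over all genes tested, 4.17% were called higher and 6.29% lower in control, and 3.42% and 4.58% in knockdown. Below 6000 UMIs these shares were 3.68% and 5.92%, and 2.14% and 3.87%. Some lists lay above these shares and others below, and each rests on few genes. Of the Ly6 genes 1 of 3 and 1 of 4 were called higher, Ly6c2 in control and Ly6c1 in knockdown, 2 near-identical genes, and 0 lower. Below 6000 UMIs Ly6c1 was not called, and it had a UMI in 38.8% of knockdown cells rich in Cald1 and Col3a1, of median depth 15299 UMIs, against 8.33% of members. After thinning to 800 UMIs the shares were 9.09% and 3.33%, and the part of RNA from those cells was not tested. Homing genes had 2 higher and 2 lower of 12 and 1 and 1 of 19, and NK receptors 1 and 2 of 10 and 1 and 1 of 12. The 2 lower NK receptors in control were Klrd1, at 787 against 1275 CPM, and Klrc1, at 303 against 580 CPM, whose products pair as an inhibitory receptor. Memory genes had 0 and 3 of 13 and 2 and 1 of 17, transcription factors 1 and 2 of 20 and 0 and 1 of 26, and cytokine receptors 1 and 1 of 10 and 1 and 3 of 19. MHC class I genes had 0 and 0 of 17 and 1 and 0 of 18, cell cycle genes 1 and 0 of 9 and 0 and 0 of 20, and glycolysis genes 0 and 2 of 12 and 1 and 1 of 22. Heat shock genes had 0 and 1 of 11 and 0 and 0 of 13, and cholesterol synthesis genes were measured in knockdown alone, with 0 calls of 15. Below 6000 UMIs, homing genes had 1 and 0 of 11 in control and 3 and 1 of 18 in knockdown, NK receptors 0 and 2 of 7 and 0 and 1 of 12, memory genes 1 and 3 of 9 and 1 and 0 of 15, and transcription factors 1 and 1 of 18 and 0 and 0 of 25. Cytokine receptors then had 1 and 0 of 9 and 0 and 3 of 16, MHC class I genes 1 and 0 of 16 and 1 and 0 of 18, glycolysis genes 0 and 3 of 10 and 0 and 1 of 19, and cell cycle, heat shock and cholesterol genes the same numbers of calls as before.

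Between the libraries the members of the knockdown tumour had less Gzma and more Xcl1 RNA in sum, most of it in few cells. Of 4401 genes tested, 285 were called higher, or 6.48%, and 187 lower, or 4.25%, in knockdown members; below 6000 UMIs the numbers were 124 and 105 of 3239, or 3.83% and 3.24%. The median log2 ratio over all genes was 0.13, and 0.07 below 6000 UMIs. The ratios carry the difference between 1 pair of libraries, so genotype and library cannot be told apart.

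Of the killing genes 3 of 16 were called higher and 3 lower, with a median log2 ratio of -0.36, and 3 and 1 below 6000 UMIs, with a median of -0.07. Gzma fell from 1564 to 743 CPM, a ratio of 0.475 (0.393 to 0.577), and from 1946 to 957 CPM below 6000 UMIs. The top 4 of 32 control and 18 of 180 knockdown members held 72.3% and 71.1% of its UMIs. After thinning to 800 UMIs, the shares of members with a Gzma UMI were 31.3% (16.1 to 50.01) and 23.3% (17.4 to 30.2), with intervals that overlap widely. Gzmb was at 948 and 743 CPM, a ratio of 0.784 and of 0.959 below 6000 UMIs, and Prf1 at 111 and 121 CPM; neither passed the call. Nkg7 had a ratio of 0.823. The protease inhibitors Serpinb9, from 90.8 to 196 CPM, and Serpinb6b, from 151 to 268 CPM, rose, with ratios of 2.15 (1.09 to 4.85) and 1.77 (1.04 to 3.25).

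Among cytokines, Xcl1 rose from 242 to 792 CPM, a ratio of 3.27 (2.17 to 5.17) and 4.28 below 6000 UMIs, from 24 control UMIs of which 16 lay in 1 cell. Ifng was at 1544 and 1099 CPM, a ratio of 0.712 (0.594 to 0.857) that did not pass the call and lay above 1 under the thinned rule and with a minimum of 5 Ccl5 UMIs. Ccl4 had a ratio of 0.959 and Ccl3 of 1.14. Ltb, lymphotoxin beta, fell from 504 to 217 CPM, a ratio of 0.430 (0.306 to 0.614). In all 2 of 9 cytokine and chemokine genes were called higher and 1 lower, and 2 and 1 of 8 below 6000 UMIs.

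Receptors for cytokines split by chain. Il7r, the interleukin 7 receptor of long-lived T cells, rose from 80.7 to 194 CPM, Il2rb, a chain shared by interleukin 2 and 15 receptors, from 252 to 397 CPM, and Il18rap, an interleukin 18 receptor chain, from 90.8 to 207 CPM. Their ratios were 2.40 (1.17 to 5.71), 1.57 (1.04 to 2.49) and 2.28 (1.16 to 5.13), and they stayed called below 6000 UMIs. After thinning to 800 UMIs, the shares of members with an Il7r UMI were 15.6% (5.28 to 32.8) and 19.4% (13.9 to 26.0), with intervals that overlap widely. Il2ra, the inducible interleukin 2 receptor chain, fell from 172 to 62.6 CPM, but its ratio lay above 1 in cells of 1000 to 3000 UMIs (log2 1.60). The list had 3 higher and 2 lower of 16, and 4 and 2 of 13 below 6000 UMIs.

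Of the exhaustion genes outside the rule 3 of 29 were called higher and 5 lower, and 5 and 4 of 28 below 6000 UMIs. The genes named here were chosen after their values were seen. Tnfrsf4, which encodes OX40, fell from 414 to 35.2 CPM, a ratio of 0.0851 (0.0460 to 0.152), and 0.126 below 6000 UMIs, where 18 of the 32 control UMIs lay in 1 cell. In summed UMIs Tnfrsf9 fell from 454 to 284 CPM and Tnfrsf18, which encodes GITR, from 323 to 137 CPM. Both stayed called below 6000 UMIs, at ratios of 0.662 and 0.536. The top 4 of 32 control members held 29 of the 45 control Tnfrsf9 UMIs. By cells Tnfrsf9 was not lower in knockdown. With cells thinned to 800 UMIs, the shares with a Tnfrsf9 UMI were 21.9% (9.28 to 40.0) and 26.1% (19.9 to 33.2). The CD4 and regulatory T cell list, which holds Tnfrsf4, summed to 958 and 358 CPM, and its part in these values was not tested. Nr4a1 fell too, from 262 to 89.97 CPM, while Rgs16 rose from 151 to 297 CPM in summed UMIs. After the same thinning, the shares of members with a Rgs16 UMI were close, at 18.8% (7.21 to 36.4) and 19.4% (13.9 to 26.0).

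Several lower genes belonged to the homing, transcription factor and T cell receptor signalling lists and were picked here after their values were seen. Cd48, an adhesion ligand, fell from 404 to 119 CPM, a ratio of 0.296 (0.195 to 0.452), Cd247, the CD3 zeta chain, from 242 to 97.8 CPM, and Ikzf3, the lymphoid factor Aiolos, from 293 to 121 CPM. Their ratios below 6000 UMIs were 0.331, 0.448 and 0.441. Itgb1 fell from 504 to 334 CPM but lay above 1 under the thinned rule. Homing genes had 0 higher and 5 lower of 16, transcription factors 0 and 4 of 23, and T cell receptor signalling genes 1 and 4 of 30. Below 6000 UMIs the counts were 1 and 3 of 16, 0 and 1 of 22, and 1 and 2 of 30. The higher T cell receptor gene was Trbc1, from 242 to 419 CPM, whose log2 ratio was -0.03 in members without a C1q UMI. Trbc2, its near-identical neighbour, was at 1251 and 919 CPM, a ratio of 0.735 that did not pass the call.

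**Figure D5:**
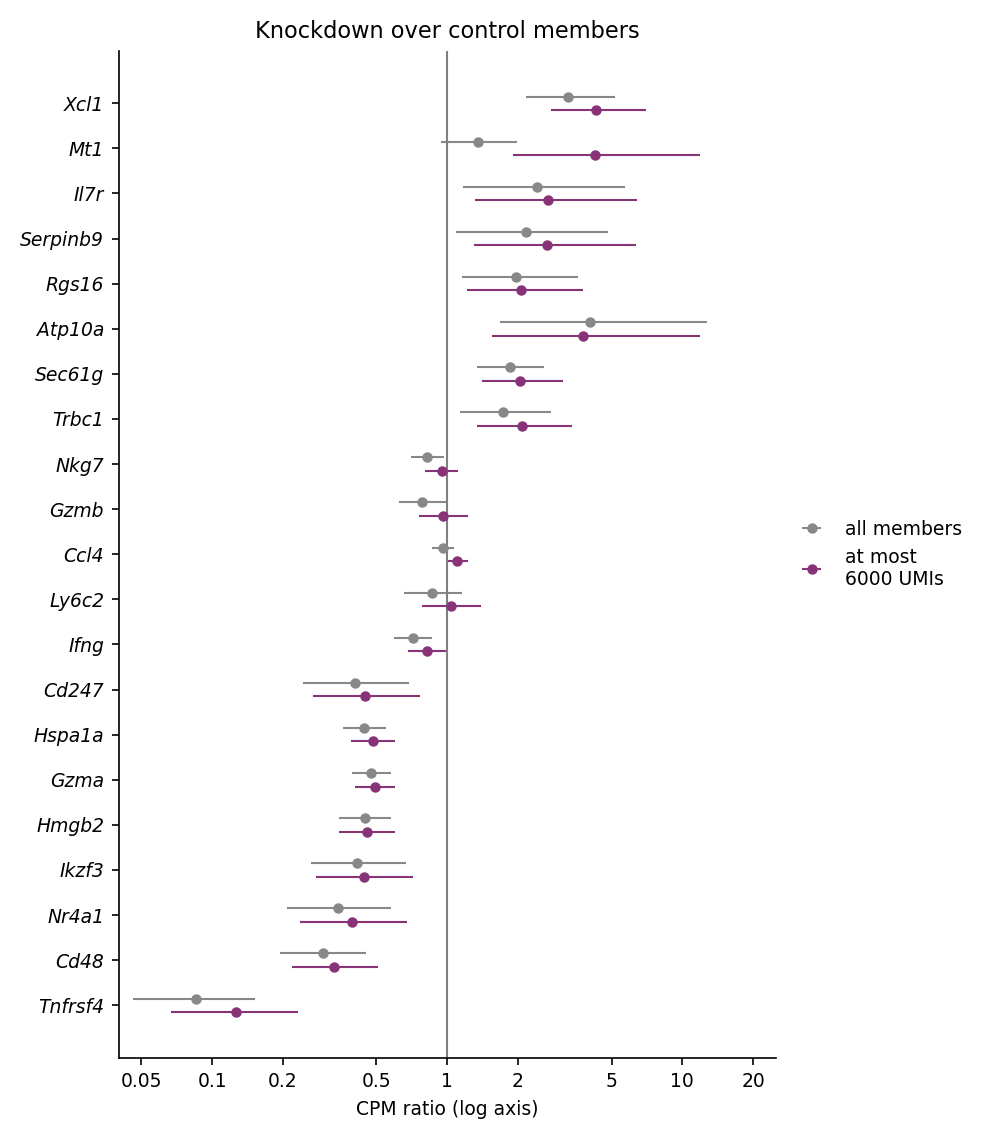
Points are CPM ratios of knockdown over control members (x, log axis) for 21 genes, over all members (grey) and over members of at most 6000 UMIs (purple), with 95% counting intervals. Xcl1, Il7r and Serpinb9 lie right of 1 and Gzma, Cd48 and Tnfrsf4 left of 1 in both sets of cells, while Mt1 moves from 1.35 to 4.26 without the deep cells.

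Stress genes divided. Hspa1a, an inducible Hsp70 gene near-identical to Hspa1b, fell from 1332 to 589 CPM, a ratio of 0.442 (0.359 to 0.547), while Hsph1, a co-chaperone, rose from 252 to 417 CPM. In members without any checkpoint UMI Hspa1a lay above 1 instead (log2 1.61). The heat shock list had 4 higher and 1 lower of 13, and 2 and 1 of 12 below 6000 UMIs. Hmgb2, a chromatin protein of activated and cycling cells, fell from 888 to 395 CPM, and 36 of its 88 control UMIs lay in 1 cell. Below 6000 UMIs the ratios of Hspa1a, Hsph1 and Hmgb2 were 0.482, 1.73 and 0.454.

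The other lists had these counts of higher and lower genes: interferon response 3 and 3 of 40, MHC class I 0 and 3 of 18, NK receptors 1 and 3 of 12, memory 3 and 1 of 15, cell cycle 2 and 2 of 12, glycolysis 2 and 0 of 19, immediate early 2 and 1 of 26, Ly6 0 and 0 of 4, and cholesterol synthesis 0 and 0 of 5. Below 6000 UMIs they were 0 and 2 of 30, 0 and 3 of 18, 0 and 1 of 10, 2 and 2 of 13, 1 and 2 of 9, 0 and 0 of 15, 0 and 1 of 21, 0 and 0 of 3 and 0 and 0 of 1, in the same order. Bcl2, a survival gene of the memory list, fell from 252 to 125 CPM. Ifi27l2a, an interferon-induced gene, had a ratio of 0.321 over all members but 0.728 below 6000 UMIs, where it did not pass the call.

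The most extreme ratios at the low end rested on deep cells. The 10 lowest by the naming rule were Col1a1, Mmp3, Col1a2, Abi3bp, Col12a1, Rarres2, Bgn, Postn, Cpxm1 and Tnc, genes of matrix-producing cells that the deepest control member carried, and H19 stood at the top with 668.9 against 90.8 CPM. Without each library's deepest member the H19 ratio was near 1 (log2 -0.03). Of the 10 highest, Xcl1, Atp10a, Tor1aip1, Sec61g, Smg6, Sipa1l1, Myo10 and Ttc3 stayed called below 6000 UMIs, and Vcam1 and H19 did not. Sec61g, a subunit of the ER translocon, was at 434 and 800 CPM, a ratio of 1.84 (1.35 to 2.59), and Atp10a, a phospholipid flippase gene, at 50.4 and 203 CPM, a ratio of 4.03 (1.67 to 12.7). Empty droplets held Sec61g at 673 and 751 CPM and Atp10a at 76.3 and 97.0 CPM.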

How the data were processed

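Single-cell RNA was measured in 2 droplet libraries of MC38 tumours, with 1 library in each group and a 10x 3' kit. The authors deposited unfiltered UMI counts per gene and barcode, made with Cell Ranger 4, per the file headers. The genome build was not given in the sources used, nor was the annotation. No read that the deposited counts already assigned to a gene was reassigned, so near-identical genes stay uncertain.

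Cells were selected by the rule in the opening, and the members, the 17 gene lists and the naming rule were chosen with earlier results of these data known. The base gate left 13205 and 17560 barcodes of at least 800 UMIs in control and knockdown, then 13096 and 17451 after the mitochondrial bound, 652 and 1586 with T cell receptor complex UMIs, 311 and 917 with CD8 UMIs, 305 and 905 without Cd4 and Foxp3 and 277 and 859 with at most 3 C1q UMIs. Counts were summed over the cells of a group and given as CPM of that sum. Ratios carry 95% exact conditional-binomial intervals and shares 95% Clopper-Pearson intervals. They cover counting error only, and cells of 1 library are not replicates, so no test was made. A gene needed at least 20 UMIs over both groups, and a call a ratio past 1.5-fold with the interval beyond 1. Genes used by the rule, 21 in all, were left out of counts of calls. Empty droplets were barcodes of at most 100 UMIs. C1q-rich reference cells had at least 20 C1q UMIs and 0 T cell receptor complex UMIs. Shares of cells with a UMI were compared after thinning each cell to 800 UMIs, the least depth kept. A gene listed at 0 was bounded at 3 counts per cell group. Scrublet (scanpy 1.11.5) marked doublets, which were kept, and their removal was an alternative. The script was tested on simulated data.

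The naming rule took the genes that selected the cells. It also took the 10 highest and 10 lowest genes between libraries and against checkpoint-high cells by the interval end nearest 1. These needed a CPM of at least 100 in 1 group and above that of empty droplets. Of each list it took the 2 most abundant members and those with the highest and lowest ratio. The text describes only part of the genes taken by this rule. Other genes are named as called members of a list or were chosen after their values were seen. The lists are killing, cytokines and chemokines, Ly6, homing, NK receptors, exhaustion outside the rule, memory, transcription factors, T cell receptor signalling, cytokine receptors, interferon, MHC class I, cell cycle, glycolysis, cholesterol synthesis, immediate early and heat shock genes. Python 3.11.15, numpy 2.4.6, scipy 1.17.1 and matplotlib 3.10.9 were used. The alternatives were 13 listed at the outset and 3 added after the data were seen.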

Additional observations from a re-analysis of the deposited data

Results flagged for a closer look

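Of the genes named by the rule, 6 had ratios of members over checkpoint-high cells on opposite sides of 1 in the 2 libraries with both intervals beyond 1. The difference was not tested, since each group holds 1 library.

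Xcl1, a chemokine gene, stood at 0.1997 in control and 1.65 in knockdown. It kept this order below 6000 UMIs, at 0.167 and 1.80. The shares of cells with an Xcl1 UMI after thinning did not take opposite sides. They were 6.25% of members against 4.76% of checkpoint-high cells in control, and 14.4% against 11.3% in knockdown. The other 5 are genes whose member UMIs lie largely in the deepest member of 1 library, a cell that also carried 213 (control) or 695 (knockdown) tumour-list UMIs. Among knockdown checkpoint-high cells, 1 had over 1% of its UMIs from collagen, Sparc and H19. Its part in the knockdown ratios was not tested. Col1a1, a collagen gene, stood at 424.8 and 0.288, and Col1a2 at 102.3 and 0.0720. Mmp3, a matrix metalloprotease gene, was at least 39.9 in control, with 0 UMIs in the control checkpoint-high cells and a floor of 3 counts for that group, and 0.0701 in knockdown. Rarres2, which encodes chemerin, was at least 21.2 by the same floor and 0.0555 in knockdown. H19 stood at 0.362 in control and 23.99 in knockdown, where 310 of its 342 member UMIs lay in 1 cell.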

How the results depend on the processing

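The larger share of members among CD8-gated cells in knockdown kept its direction under all alternatives that gave it, from 1.54 to 1.89 times. The counts of called genes went down in several. In the order higher and lower in knockdown members, then higher and lower than checkpoint-high cells in control, then in knockdown, at least 50 UMIs per gene gave 159, 106, 38, 77, 123 and 189 genes. The rule applied after thinning to 800 UMIs gave 150, 109, 49, 66, 127 and 89. Cells of 1000 to 3000 UMIs, with 15 control and 144 knockdown members, gave 61, 68, 15, 13, 80 and 108. At most 6000 UMIs, chosen after the data were seen like leaving out the deepest or the collagen-rich members, gave 124, 105, 56, 90 and 114 for the first 5. Members without a checkpoint UMI gave 92, 68 and, higher than checkpoint-high cells in knockdown, 140. Members without a C1q UMI gave 153 higher in knockdown members and 40 and 61 against control checkpoint-high cells. Leaving out each gene's top cell gave 50 higher in control members. Fewer cells or fewer genes enter each of these; no cause beyond that was tested.

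Of 118 ratios of genes taken by the naming rule, not all of them described above, 59 lay on the same side of 1 under every alternative. Calls changed side 34 times. Between libraries, H19 went to log2 ratios of -0.22 without checkpoint UMIs, -0.42 without C1q UMIs, -4.33 under the thinned rule, -0.20 without its top cell, -0.52 in cells of 1000 to 3000 UMIs and -0.0318 without the collagen-rich or the deepest cells, where Col1a1 went to 0.55 in either (0.36 without C1q UMIs). Without C1q UMIs Trbc1 went to -0.0302 and Epsti1 to 0.30, and without checkpoint UMIs Hspa1a to 1.61. Under the thinned rule Itgb1 went to 0.0759, Tyrobp to 1.48 and Klf4 to -0.84, and in cells of 1000 to 3000 UMIs Tyrobp to 1.29 and Il2ra to 1.60. Against control checkpoint-high cells the thinned rule gave Nfkbia -1.35, Prf1 0.97 and Tmem163 0.58, and cells of 1000 to 3000 UMIs gave Nfkbia -0.30, Prf1 1.22, Nabp1 0.54 and Inpp4b 0.35. Against knockdown checkpoint-high cells the thinned rule gave Magt1 -0.33, Ly6c1 -0.76, Gtdc1 0.0586, Smyd3 0.30, Nabp1 0.27 and Phactr2 0.46, and cells of 1000 to 3000 UMIs gave Ifng -0.17, Ly6c1 -0.59 and Gzmf 0.12. The meaning of a call used for these 34 was set after the values were seen; with an interval beyond 1 at any fold there were 47, and 98 of 798 recomputed list medians changed sign.

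No paired analysis was possible because each group holds 1 library. Genes under 20 UMIs could not be compared at this depth. The control side of every knockdown over control ratio rests on 32 members. Control ratios against checkpoint-high cells rest on these 32 members and 42 checkpoint-high cells.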
